A study of Mus musculus with 9 samples.

Results

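The comparison described here set the intestinal tract of mice on a diet lacking methionine, tryptophan and niacin (3K) against that of mice on a diet lacking methionine alone (1K). Both groups stayed on their diet until day 28 and drank dextran sulfate sodium (DSS) freely from day 18, so that both shared the methionine deficiency and the DSS, and 3K differed by the loss of 2 more nutrients. Total RNA was sequenced from 1 library per condition, and the deposited table gives each gene in FPKM, a fragment count divided by transcript length and by the number of mapped fragments. Of its 55468 genes, the 18573 with at least 1 FPKM in 3K or 1K were compared by the difference of log2(FPKM + 0.5), 3K minus 1K. A gene counted as higher or lower in 3K where this difference reached 1 in size, which is 2-fold. A gene below 1 FPKM in 1K was compared only where 3K reached 1 FPKM, so it could not count as lower. The reverse held for genes below 1 FPKM in 3K. With 1 library a side no spread between replicates could be measured, no test was made, and every value describes these libraries.

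The other conditions were used for setting. At day 28, 2K had the diet deficient in tryptophan and niacin with methionine present, and R had the normal diet. At day 33, 3KR, 1KR and 2KR had been 5 days back on normal feed after the same deficient diets, and RR had been on normal feed throughout. All of these mice also drank DSS from day 18. C had normal feed and no DSS and was collected at day 34. The sources used here do not give mouse strain, sex, age, the number of animals per library or the segment of gut.

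Methionine, tryptophan and niacin meet in metabolism. Methionine starts protein chains and, as S-adenosylmethionine, donates methyl groups, and its sulfur passes through transsulfuration to cysteine and glutathione. Tryptophan is used for protein, for serotonin in the enterochromaffin cells of the gut, and, through kynurenine, for the synthesis of NAD. Niacin gives NAD by shorter routes, so a diet lacking both narrows the supply of this cofactor. Cells short of an amino acid activate the kinase GCN2, and translation of the transcription factor ATF4 then induces genes of amino acid uptake, synthesis and tRNA charging. In the gut, neutral amino acids such as tryptophan and methionine enter from the lumen through the brush border transporter Slc6a19. DSS injures the epithelium, and the injured mucosa draws neutrophils and is rebuilt from the crypts.

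Estimated depth was 29.4 M fragments in 3K and 24.2 M fragments in 1K, and 17084 genes in 3K and 16444 in 1K reached 1 FPKM. Villin, Vil1, a cytoskeletal protein of the intestinal brush border, was at 229.8 FPKM in 3K and 942 FPKM in 1K, so that both libraries held the labelled tissue. Some libraries also carried RNA of other organs. The share of acinar pancreas genes in the summed FPKM was 10.2% for 3K, against 0.669% for 1K, and it was 7.74% in 2K and 0.611% in R. The list holds Zg16 and Spink1, which gut epithelium also makes, so a low share need not be pancreatic. The median level of the acinar genes was 911 FPKM in 3K, 0.069 FPKM in 1K, 852 FPKM in 2K and 0.183 FPKM in R. Liver genes took 0.0611% in 3K, 0.0121% in 1K and 5.39% in 2K, and stomach genes took 0.0127% in 3K, 0.00433% in 1K and 2.50% in 2K. At day 33, 3KR stood apart from the rest, with small RNAs at 50.2% of its summed FPKM, against 15.5% in 3K and 18.2% in 1K, and with the colonic carbonic anhydrase Car1 at 1151 FPKM, against 2.56 FPKM in 3K and 0.0420 FPKM in 1K. In bulk tissue, fewer cells of a type and less RNA per cell cannot be told apart.

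In 3K, 2785 genes counted as higher than in 1K (15% of the genes compared) and 2774 counted as lower (14.9%), and the median difference over all 18573 genes was -0.04. Among the 13528 protein-coding genes, 2010 counted as higher and 1730 as lower. These shares are the background against which each gene group is read. By the number of genes at least 2-fold apart, the library nearest to 3K was 2K, with 2849, while 3K and 1K were 5559 genes apart. The library nearest to 1K was RR, with 2205.

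**Figure D1:**
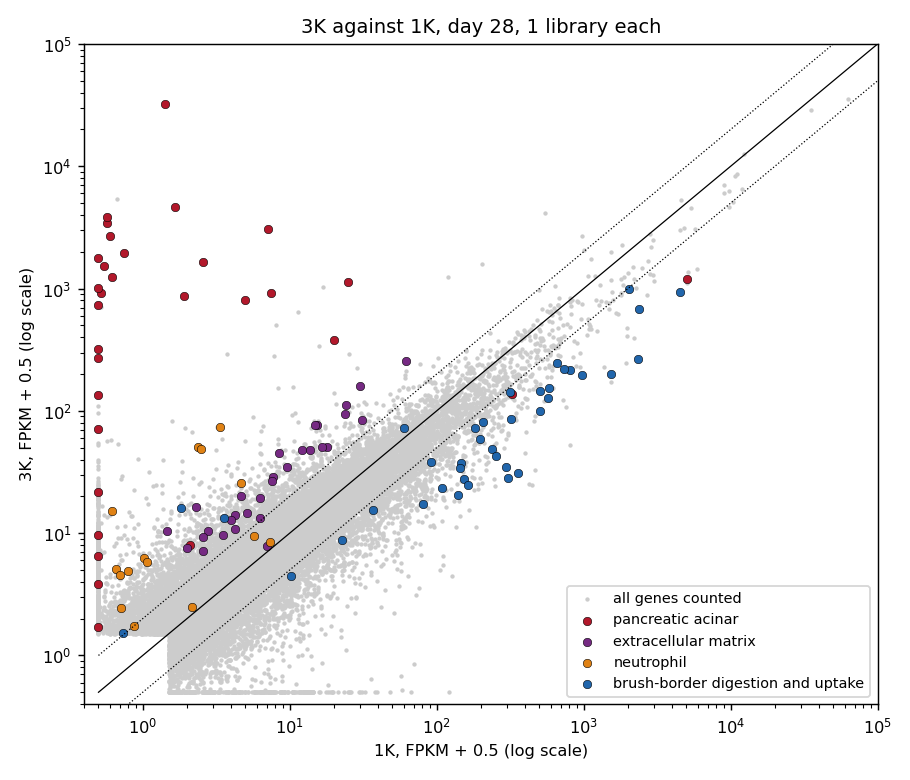
Expression of each compared gene in 3K (vertical axis) against 1K (horizontal axis), both as FPKM + 0.5 on log axes, with 1 point per gene, coloured points for 4 groups of genes, a solid line for equal levels and dotted lines for 2-fold differences. Most acinar genes lie far above the line (median log2 difference 8.84), matrix and neutrophil genes lie above it (1.85 and 2.61), and brush border genes for digestion and uptake lie mostly below it.

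The direction of small differences depended on how the libraries were scaled. Rescaling by median-of-ratios factors moved the median of all genes to 0.15, leaving out genes of the pancreas, stomach and liver and equalising the remaining sums moved it to 0.39, and doing so without small RNAs moved it to 0.21. Of the genes at least 2-fold apart, 50.1% were higher in 3K as deposited, against 61.5%, 74.4% and 65.1% under the same 3 scalings. The medians of 13 of 59 gene lists changed sign under at least 1 of them, all with a median within 0.42 of 0 as deposited. These were the lists for the circadian clock, polyamines, the methionine cycle, heat shock, NAD consuming enzymes, MHC class II, aryl hydrocarbon receptor targets, PPAR targets, T and NK cells, tuft cells, the colon, the stomach and skeletal muscle. No direction is given for these lists.

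The largest differences of the whole comparison were those of pancreatic digestive enzymes. Of 31 measured acinar genes, 29 counted as higher in 3K and 2 as lower, with a median difference of 8.84. The lower ones were Spink1, a trypsin inhibitor, and Zg16, a lectin, both of which gut epithelium also makes. Zg16 stood at 1199 FPKM in 3K against 5013 FPKM in 1K and Spink1 at 138 FPKM in 3K against 323 FPKM in 1K, so that they carried most of the acinar share in 1K. Ctrb1, which encodes chymotrypsinogen and lies on chromosome 8, 111686519 to 111691010 (GRCm38), stood at 32274 FPKM in 3K against 0.910 FPKM in 1K, a difference of 14.48. It stood at 24692 FPKM in 2K against 1.36 FPKM in R, and between 0.237 and 9.83 FPKM in the 5 libraries of day 33 and 34. The enzyme was thus abundant in the 2 libraries of day 28 whose diet lacked tryptophan and niacin. Reg2, a secreted regenerating protein of the acinar cell, had 5394 FPKM in 3K against 0.166 FPKM in 1K (difference 12.98). The lipase Pnlip, the elastase Cela3b and the chymotrypsin Ctrc were listed at 0 in 1K and stood at 739.8, 1791 and 319 FPKM in 3K. Trypsin, amylase and Reg genes are families of near-identical copies, so the split of reads within each family is uncertain.

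Endocrine pancreas followed the exocrine genes. The insulin gene Ins2 was at 322 FPKM in 3K and listed at 0 in 1K, and the second insulin gene Ins1 was at 54.2 FPKM in 3K and listed at 0 in 1K. Of 12 measured islet genes, 8 counted as higher and 2 as lower. The lower ones were the glucose carrier Slc2a2 and the peptide hormone Ucn3, of which Slc2a2 is also an enterocyte gene. Of 16 liver genes, 15 were at least 2-fold higher in 3K (median 3.90), yet from a low level. Albumin, Alb, stood at 81.7 FPKM in 3K, 1.08 FPKM in 1K, 15459 FPKM in 2K and 85.3 FPKM in R, so that 3K lay near R and 1K was the lowest of these 4. The mucous-neck-cell peptide Tff2 of the stomach had 57.1 FPKM in 3K, 0.107 FPKM in 1K and 1127 FPKM in 2K, and it was listed at 0 in R. The part of organ RNA in the other gene groups was not tested.

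**Figure D2:**
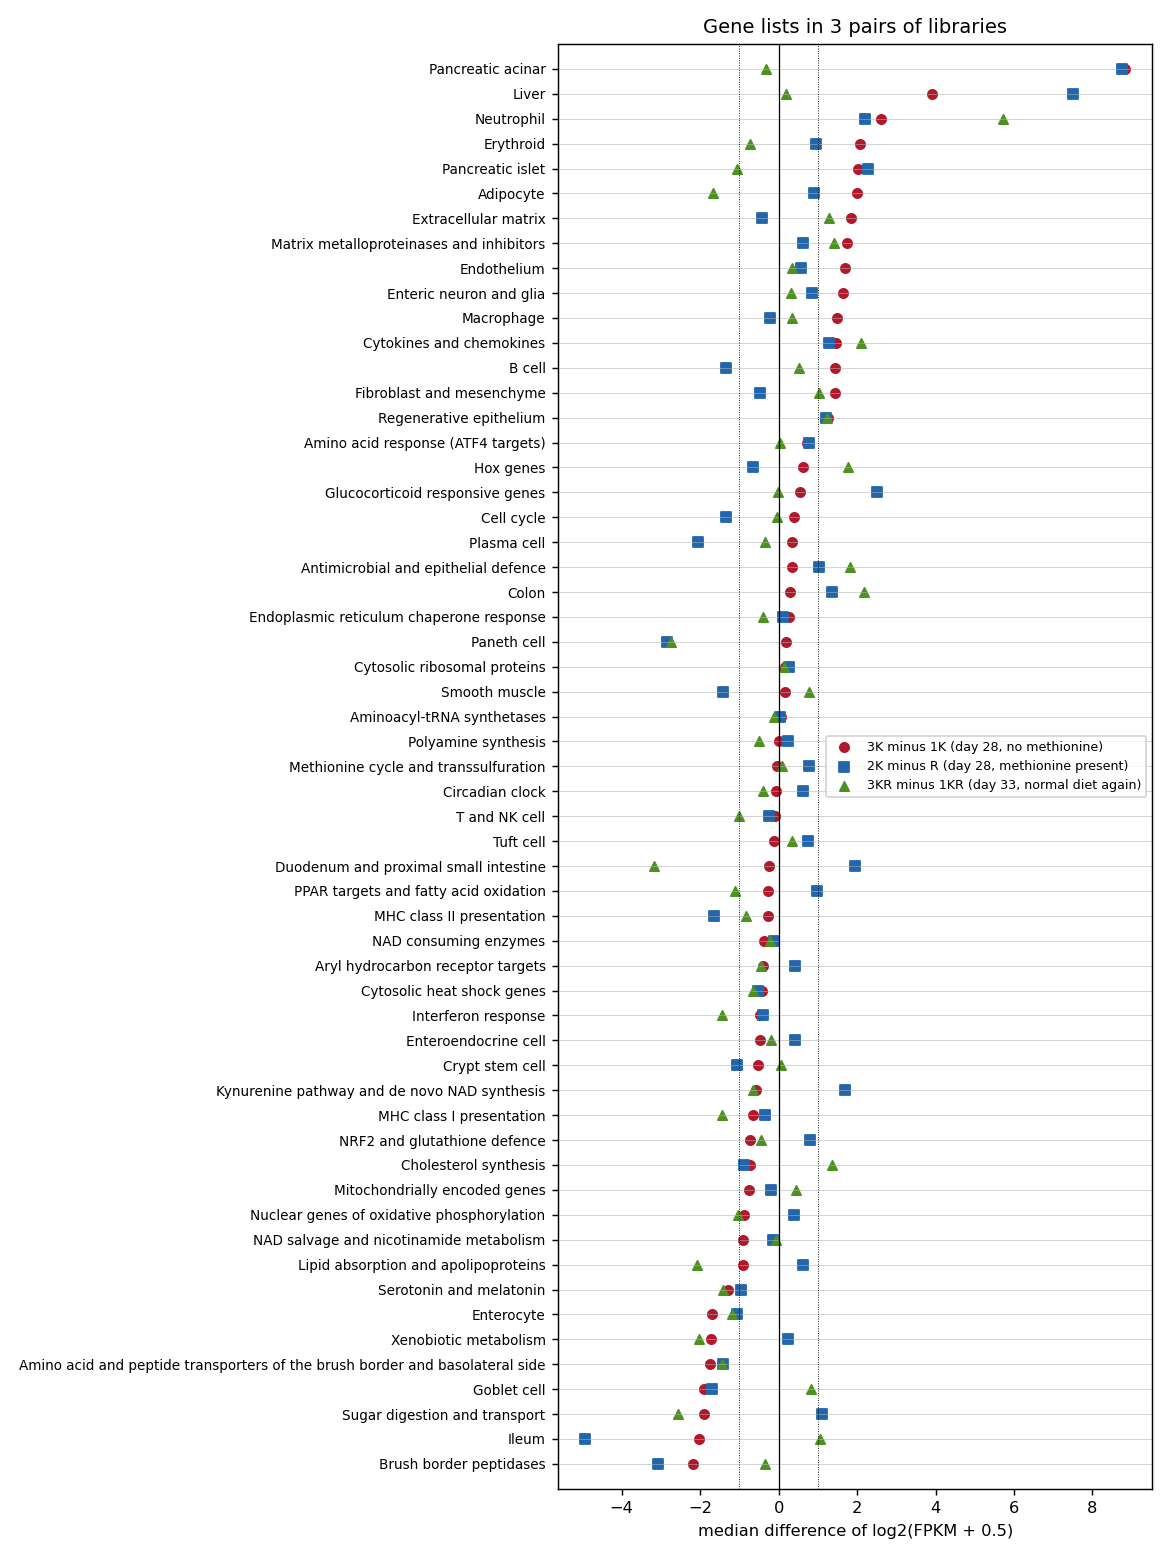
Median log2 difference (horizontal axis) of each gene list (vertical axis) for 3K minus 1K (circles), 2K minus R (squares) and 3KR minus 1KR (triangles), with dotted lines at a difference of 1 either way, for lists with at least 5 measured genes. The acinar list lies at 8.84 in 3K minus 1K and 8.76 in 2K minus R, whereas the extracellular matrix list lies at 1.85 without methionine in the diet and at -0.42 with it.

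The second marked feature of 3K was a lower level of the genes with which enterocytes digest and absorb food. Of 22 measured enterocyte genes, 19 counted as lower in 3K and 1, the water channel gene Aqp8, as higher, with a median of -1.69. With the organ genes left out and the remaining sums made equal, the median was -1.25. The list made up 2.64% of the summed FPKM of 3K, against 5.35% for 1K, and between 1.21% and 4.38% in the other 7 libraries. 1K was thus the highest of the 9 libraries, and 3K lay nearer to R, with 2.46%, and to C, with 2.03%, than to 1K.

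Sugar digestion gave the clearest case. All but 1 of the 11 genes on this list were at least 2-fold lower in 3K (10 of 11, median -1.90), the exception being the glucose-6-phosphatase gene G6pc at 71.8 FPKM in 3K and 59.3 FPKM in 1K. Sis, the sucrase-isomaltase of the brush border, on chromosome 3, 72888557 to 72967863, stood at 263 FPKM in 3K, 2339.8 FPKM in 1K, 249 FPKM in 2K and 646 FPKM in R. At day 33 it stood at 357 FPKM in 3KR, 1666 FPKM in 1KR, 1310.4 FPKM in 2KR and 1098 FPKM in RR, and it had 345 FPKM in C. Sis was thus highest in 1K and lowest in 2K and 3K. The sodium-glucose cotransporter Slc5a1 had 200.04 FPKM in 3K against 1526 FPKM in 1K (difference -2.93), and lactase, Lct, had 27.8 FPKM in 3K against 303 FPKM in 1K (-3.42). Slc2a2, the basolateral glucose carrier GLUT2, showed the largest difference of the list, with 30.3 FPKM in 3K and 357 FPKM in 1K (-3.54). Fructose handling was lower as well, with the carrier Slc2a5 at 48.2 FPKM in 3K and 236 FPKM in 1K and the kinase Khk at 86.0 FPKM in 3K and 322 FPKM in 1K.

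Protein digestion and amino acid uptake had the same direction. Of 10 brush border peptidases, 9 were at least 2-fold lower in 3K (median -2.18), among them aminopeptidase N, Anpep, with 938 FPKM in 3K against 4490.3 FPKM in 1K. The exception was Tmprss15, the enteropeptidase of the proximal gut that activates trypsinogen, with 12.7 FPKM in 3K against 3.08 FPKM in 1K, and 26.6 FPKM in 2K. Of 17 amino acid and peptide transporters, 15 counted as lower and 2 as higher (median -1.75). Slc6a19, the main luminal carrier of tryptophan and methionine, stood at 218 FPKM in 3K, 732 FPKM in 1K, 182 FPKM in 2K and 294 FPKM in R, and between 207 and 402 FPKM in the 5 later libraries. Its level in 1K was the highest of the 9, and 3K lay close to C, where it was 207 FPKM.

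On the basolateral side, the aromatic amino acid carrier Slc16a10 stood at 22.9 FPKM in 3K against 109 FPKM in 1K (-2.22), and Slc43a2, a carrier of large neutral amino acids including methionine, at 42.6 FPKM in 3K against 253 FPKM in 1K (-2.56). The peptide carrier Slc15a1, which takes up di- and tripeptides, had 126 FPKM in 3K and 573 FPKM in 1K. The higher genes of the list were Slc38a3, a glutamine carrier that liver also expresses, with 15.6 FPKM in 3K against 1.33 FPKM in 1K, and Cltrn, collectrin, which in the kidney brings amino acid transporters to the cell surface, with 1.03 FPKM in 3K against 0.237 FPKM in 1K. Slc38a3 was highest in 2K, at 141 FPKM, the library with the most liver RNA. The liver share of 3K, 0.0611%, lay near the 0.0552% of R, whereas the acinar share was 10.2% in 3K and 0.611% in R. The median acinar gene stood at 911 FPKM in 3K and 0.183 FPKM in R. The part of either organ in Slc38a3 was not tested.

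Fat absorption genes differed less evenly. Of 21 genes, 10 counted as lower in 3K and 1 as higher, with a median of -0.92. The fatty acid binding protein Fabp2 had 1102 FPKM in 3K against 5037 FPKM in 1K, and the cholesterol carrier Npc1l1 had 53.6 FPKM in 3K against 254 FPKM in 1K. The apolipoprotein Apoa4 and the fatty acid carrier Cd36 stayed within 2-fold, at 6306 and 187 FPKM in 3K and 9730.0 and 180.4 FPKM in 1K. Apoa4 was at 498 FPKM in R and 474 FPKM in C, so both libraries lay far above those 2. The 1 higher gene was the lipoprotein receptor Scarb1, which liver also expresses, at 36.7 FPKM in 3K, 6.57 FPKM in 1K and 111 FPKM in 2K.

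Genes of xenobiotic metabolism were mostly lower in 3K. Of 22 measured genes of xenobiotic metabolism, 16 counted as lower and 0 as higher (median -1.71). The cytochrome P450 Cyp2b10 had 5.99 FPKM in 3K against 110.4 FPKM in 1K (-4.09). Outside the list, the glucuronosyltransferase Ugt2a3 had 3.06 FPKM in 3K against 75.1 FPKM in 1K (-4.41). With small RNAs and predicted genes left out, the largest negative difference among genes with 5 or more FPKM was that of Akr1c14, a hydroxysteroid dehydrogenase on chromosome 13, 4049011 to 4090688. It stood at 0.177 FPKM in 3K, 56.5 FPKM in 1K, 10.7 FPKM in 2K and 34.2 FPKM in R, and between 25.7 and 69.3 FPKM in the 5 later libraries, which left 3K far below all others. Akr1c genes share sequence, and Akr1c19 had 4.95 FPKM in 3K against 109 FPKM in 1K. The alcohol dehydrogenase Adh1, which also oxidises retinol, had 52.3 FPKM in 3K, 805 FPKM in 1K, 162 FPKM in 2K and 46.9 FPKM in R.

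Further genes among the 15 largest negative differences were taken by size, whatever their role. The dicarboxylate carrier Slc13a2 had 24.2 FPKM in 3K against 447 FPKM in 1K (-4.18). The inositol carrier Slc5a11 had 10.8 FPKM in 3K against 186 FPKM in 1K (-4.04), and the intestinal sphingomyelinase Enpp7 had 24.6 FPKM in 3K against 422 FPKM in 1K (-4.07). Others of this set were the kinase Tesk2 (-4.53), Slc10a5 of the bile acid carrier family (-4.43), Prr15 (-4.40), the medium-chain acyl-CoA synthetase Acsm5 (-4.26) and the sodium-glucose carrier family gene Slc5a4b (-3.97).

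Markers of gut region also differed, and stand beside the enterocyte results. Of 10 ileal genes, 7 counted as lower in 3K and 0 as higher (median -2.03), and the list took 0.0589% of the summed FPKM in 3K, 0.113% in 1K, 0.0206% in 2K, 0.485% in R and 0.739% in C. Cubilin, Cubn, which takes up vitamin B12 bound to intrinsic factor, had 3.99 FPKM in 3K, 127 FPKM in 1K, 0.304 FPKM in 2K and 283 FPKM in R. The ileal bile acid carrier Slc10a2 had 3.37 FPKM in 3K against 29.5 FPKM in 1K, and the bile acid binding protein Fabp6 had 88.6 FPKM in 3K against 342 FPKM in 1K. Among 13 markers of the duodenum and proximal gut, 4 counted as higher and 5 as lower in 3K. Higher were the iron genes Cybrd1, Slc40a1 and Hamp2 and the transcription factor Pdx1, of which Hamp2 is also expressed by pancreas and liver, Slc40a1 by liver and Pdx1 by pancreas, and lower were Lct, Fabp1 and the hormones Sct and Gip, and Iyd. Among 10 colon markers, 5 counted as higher and 5 as lower, and the higher Car1, Aqp8 and Insl5 reached at most 2.56 FPKM in 3K. The other higher ones were the glycosyltransferase B3galt5, at 30.6 FPKM in 3K against 8.54 FPKM in 1K, and the mucin Muc1, which pancreas and stomach also express, at 19.0 FPKM in 3K against 0.548 FPKM in 1K. Of 14 Hox genes, which mark position along the gut, 4 counted as higher in 3K (28.6%, beside 15% of all genes) and 0 as lower. Their median difference was 0.62, at median levels of 1.94 FPKM in 3K and 1.51 FPKM in 1K. The sources used here do not say which length of gut each library holds, so region and diet cannot be told apart in these genes. The same limit holds for the genes of digestion, absorption, xenobiotic metabolism, serotonin handling and goblet cells.

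Secretory and crypt cells differed from each other. Of 16 goblet cell genes, 12 counted as lower in 3K and 1 as higher (median -1.89). The mucin Muc2, the scaffold of the mucus layer, had 1457 FPKM in 3K, 5892 FPKM in 1K, 765 FPKM in 2K and 7863 FPKM in R. Atoh1, the transcription factor that commits cells to the secretory fate, had 1.03 FPKM in 3K against 11.3 FPKM in 1K, and the trefoil peptide Tff3 had 246 FPKM in 3K against 1927 FPKM in 1K. For both genes 3K and 2K lay well below R, where Atoh1 was 13.9 and Tff3 1721 FPKM. The higher gene was Retnlb, an antibacterial goblet cell product, with 9.08 FPKM in 3K and 0.249 FPKM in 1K.

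Paneth cell genes were near equal in 3K and 1K. Of 13 measured, 1 counted as higher and 1 as lower, these being Nupr1, a stress gene with high levels in acinar pancreas, and the guanylate cyclase ligand Guca2b. Lysozyme, Lyz1, had 554 FPKM in 3K and 484 FPKM in 1K, against 109 FPKM in 2K, 2149 FPKM in R and 1592 FPKM in C. Both methionine-deficient libraries thus lay below R and C and above 2K. The alpha-defensin Defa24 had 1261 FPKM in 3K and 1187 FPKM in 1K, and defensin genes also share sequence.

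The stem cell marker Olfm4 was low in all 3 deficient libraries of day 28. It had 0.916 FPKM in 3K, 3.51 FPKM in 1K and 1.03 FPKM in 2K, against 214 FPKM in R, and the later libraries had 35.5 FPKM in 3KR and between 199.98 and 313 FPKM in the other 4. The Wnt target genes Axin2 and Lgr5 were at least 2-fold lower in 3K than in 1K, with 3.38 FPKM in 3K against 13.2 FPKM in 1K for Axin2 and 0.492 FPKM in 3K against 1.75 FPKM in 1K for Lgr5. Of 13 crypt stem cell genes, 5 counted as lower in 3K and 1 as higher (median -0.53). With the organ genes left out and the remaining sums made equal, the median was -0.10, so the direction of this list depended on the scaling. Cell cycle genes did not lie lower in 3K. Of 39 measured, 32 lay above 0 and 4 were at least 2-fold higher, with a median of 0.40, and of 0.81 in the same setting. The proliferation marker Mki67 had 18.9 FPKM in 3K against 8.37 FPKM in 1K, 4.11 FPKM in 2K and 21.9 FPKM in R, which placed 3K close to R.

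Hormone-making cells of the epithelium showed 6 of 18 genes counted as lower and 3 as higher in 3K (median -0.49). Neurotensin, Nts, a hormone of the distal small intestine, had 2.00 FPKM in 3K, 41.2 FPKM in 1K, 0.299 FPKM in 2K and 35.4 FPKM in R. The incretin Gip of the proximal gut had 53.4 FPKM in 3K against 181 FPKM in 1K, and secretin, Sct, which stimulates pancreatic bicarbonate, had 6.23 FPKM in 3K against 34.6 FPKM in 1K. The higher ones were Insl5, the secretogranin Scg2, and Gcg, which encodes glucagon in islets and incretins in the gut. Tuft cell genes numbered 9, of which the 2 higher ones, Alox5ap and Ptgs1, are eicosanoid genes that leukocytes also express, while the defining ion channel Trpm5 had 2.58 FPKM in 3K against 2.06 FPKM in 1K.

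The lists of genes that handle tryptophan, niacin and serotonin had medians below 0 in 3K minus 1K. Serotonin handling had 5 of 8 genes counted as lower and 1 as higher (median -1.30). The monoamine oxidase Maoa, which breaks serotonin down, stood at 14.967 FPKM in 3K, 165 FPKM in 1K, 8.75 FPKM in 2K and 116 FPKM in R. At later times Maoa had 112 FPKM in 3KR, 304 FPKM in 1KR, 285 FPKM in 2KR, 226 FPKM in RR and 85.1 FPKM in C. Maoa was thus lowest in the 2 libraries whose diet lacked tryptophan and niacin at collection. Its relative Maob had 6.10 FPKM in 3K against 77.7 FPKM in 1K, with 8.18 FPKM in 2K and 50.4 FPKM in R. The serotonin uptake carrier Slc6a4 of enterocytes had 24.9 FPKM in 3K against 80.4 FPKM in 1K. Tph1, the tryptophan hydroxylase that starts serotonin synthesis in enterochromaffin cells, had 2.80 FPKM in 3K, 7.49 FPKM in 1K, 8.57 FPKM in 2K and 3.34 FPKM in R. Its difference was -1.27 in 3K minus 1K and 1.24 in 2K minus R. Stomach genes took 2.50% of the summed FPKM in 2K against 0.00229% in R, and the part of organ RNA in Tph1 was not tested. The receptor channel Htr3a was the higher gene, at 5.59 FPKM in 3K against 1.08 FPKM in 1K.

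The kynurenine route and the synthesis of NAD from tryptophan had 4 of 12 genes counted as lower and 1 as higher in 3K (median -0.57). NAD synthetase, Nadsyn1, the last step from tryptophan and from nicotinic acid, had 7.16 FPKM in 3K against 35.1 FPKM in 1K (-2.22). Ido1, the dioxygenase that opens the tryptophan ring outside the liver, had 0.733 FPKM in 3K, 2.40 FPKM in 1K, 0.345 FPKM in 2K and 5.21 FPKM in R. The liver dioxygenase Tdo2 had 2.29 FPKM in 3K against 0.960 FPKM in 1K, and 242 FPKM in 2K, where albumin was also highest.

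The routes from niacin showed 5 of 10 genes counted as lower and 2 as higher (median -0.90). Naprt, which takes nicotinic acid into the pathway, had 22.3 FPKM in 3K, 85.1 FPKM in 1K, 27.5 FPKM in 2K and 50.2 FPKM in R. Nampt, which recycles nicotinamide, had 22.3 FPKM in 3K against 70.9 FPKM in 1K, with 37.2 FPKM in 2K and 23.6 FPKM in R. Nampt was thus highest in 1K, and 3K lay at the level of R. The monocarboxylate carrier Slc5a8, which can also carry nicotinate, had 11.5 FPKM in 3K against 39.2 FPKM in 1K. The higher genes were Aox1, an oxidase, and the nicotinamide methyltransferase Nnmt, both also liver genes, at 2.02 and 1.77 FPKM in 3K and 0.269 and 0.115 FPKM in 1K.

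Enzymes that consume NAD were mostly within 2-fold, with 2 of 14 at least 2-fold lower, Parp14 (-1.37) and the mitochondrial sirtuin Sirt3 (-1.11). Of 6 targets of the aryl hydrocarbon receptor, which binds several tryptophan products, Cyp1a1 and Nqo1 were at least 2-fold lower and Cyp1b1, also a stromal gene, higher. Cyp1a1 was low in both libraries, at 0.0570 FPKM in 3K and 1.58 FPKM in 1K.

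**Figure D3:**
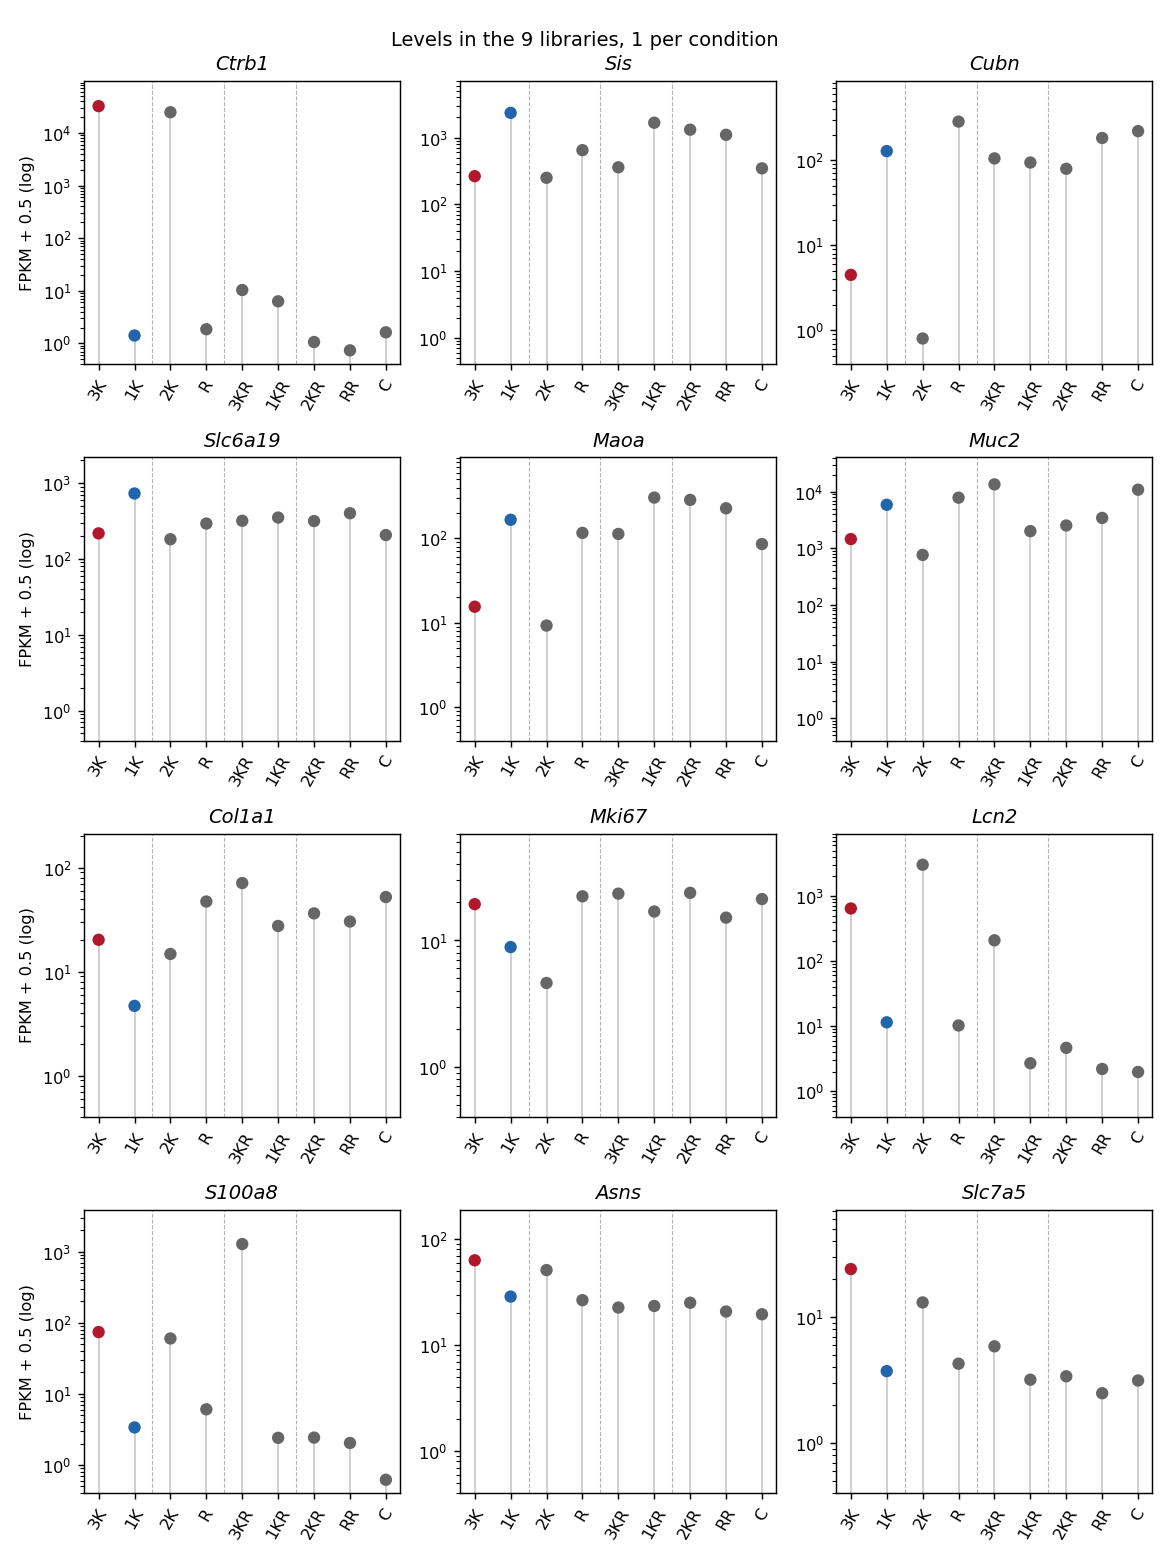
FPKM + 0.5 on a log axis (vertical) of 12 selected genes, 1 panel each, in the 9 libraries (horizontal), with 1 point per library, 3K in red and 1K in blue. Maoa and Slc6a19 are lower in 3K (14.967 and 218 FPKM) than in 1K (165 and 732 FPKM), and Lcn2 is higher (643 FPKM in 3K against 10.9 FPKM in 1K).

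Genes of the methionine cycle, whose substrate both diets lacked, split. Of 26 measured genes, 7 counted as higher in 3K and 4 as lower. The higher ones were Cbs, Mat1a, Gnmt, Cdo1, Nnmt, Ahcy and Bhmt, which the liver expresses strongly and some of which acinar cells express too. Cbs, the first enzyme of transsulfuration, stood at 66.3 FPKM in 3K, 1.66 FPKM in 1K, 206 FPKM in 2K, 2.75 FPKM in R and 38.0 FPKM in 3KR, and between 0.324 and 5.08 FPKM in the other 4. In 3KR, acinar genes took 0.273% and liver genes 0.0232% of the summed FPKM. The median acinar gene there stood at 1.12 FPKM, and the acinar list includes the gut genes Zg16 and Spink1. Mat1a, the S-adenosylmethionine synthetase of liver, had 13.7 FPKM in 3K and 0.0410 FPKM in 1K, whereas Mat2a, the form of other tissues, had 25.2 FPKM in 3K and 40.7 FPKM in 1K. The lower genes were Cth, the second transsulfuration enzyme, Suox, Got1 and Ahcyl2. Among 12 polyamine genes, the mitochondrial arginase Arg2 was lower (36.1 FPKM in 3K against 216 FPKM in 1K), and the spermine oxidase Smox and the arginase Arg1 were higher. Arg1 is the arginase of liver, and it stood at 9.26 FPKM in 3K, 2.06 FPKM in 1K, 420.3 FPKM in 2K and 5.08 FPKM in R.

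Genes of the amino acid response lay mostly higher in 3K. The 37 measured ATF4 targets had a median of 0.73. With the organ genes left out and the remaining sums made equal, it was 1.15. That setting shifts all genes together, and it moved the median of all genes from -0.04 to 0.39. Of the 37, 12 counted as higher and 1 as lower, beside 15% and 14.9% of all genes, and 26 lay above 0. Of these 12, 10 have a promoter entry in the RefSeq table used, and in 5 of the 10 the 250 bases before the gene's start hold the letters TGATGNAA, the core of a C/EBP-ATF response element, on either strand. The promoters of 4 of these, with the match in capitals, are printed because the genes span the uptake, synthesis and stress arms of the response. They are read 5′ to 3′ on the gene's strand (RefSeq, GRCm38.p6). Asns lies at chr6:7693210-7693459, minus strand, Chac1 at chr2:119350992-119351241, plus strand, Slc7a11 at chr3:50443614-50443863, minus strand, and Nupr1 at chr7:126625471-126625720, minus strand.
Asns promoter: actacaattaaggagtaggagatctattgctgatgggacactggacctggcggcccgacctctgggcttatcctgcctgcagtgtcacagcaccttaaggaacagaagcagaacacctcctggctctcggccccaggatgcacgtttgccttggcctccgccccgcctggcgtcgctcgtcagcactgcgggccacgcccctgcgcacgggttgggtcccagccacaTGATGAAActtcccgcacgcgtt
Chac1 promoter: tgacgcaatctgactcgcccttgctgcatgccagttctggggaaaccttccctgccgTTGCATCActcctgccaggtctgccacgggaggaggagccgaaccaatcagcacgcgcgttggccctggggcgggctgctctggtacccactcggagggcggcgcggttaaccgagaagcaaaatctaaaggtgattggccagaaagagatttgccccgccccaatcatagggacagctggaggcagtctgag
Slc7a11 promoter: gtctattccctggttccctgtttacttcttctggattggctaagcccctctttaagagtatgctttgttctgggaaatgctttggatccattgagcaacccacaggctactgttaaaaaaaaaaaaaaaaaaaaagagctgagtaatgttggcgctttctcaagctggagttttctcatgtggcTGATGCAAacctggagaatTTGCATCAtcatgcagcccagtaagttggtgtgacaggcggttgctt
Nupr1 promoter: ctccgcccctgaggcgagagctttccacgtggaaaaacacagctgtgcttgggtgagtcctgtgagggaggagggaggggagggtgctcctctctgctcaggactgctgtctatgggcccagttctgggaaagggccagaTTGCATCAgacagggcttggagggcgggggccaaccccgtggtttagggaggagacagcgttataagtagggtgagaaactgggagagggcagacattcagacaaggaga
The match begins 23 bases before the start in Asns on the gene's own strand, and on the opposite strand 193 bases before it in Chac1 and 110 in Nupr1. Slc7a11 holds a match on each strand, 66 and 47 bases before the start. The fifth gene, Pck2, holds one on the opposite strand 103 bases before the start. Of all 32851 RefSeq promoters of this length 3.45% hold a match. Counted by gene symbol, 3.91% of 27025 do, beside 8 of the 31 list members with a promoter entry (25.8%). A match describes the letters in the window only, and these genes were chosen after their values were seen.

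Of the members with those promoters, Asns, asparagine synthetase, had 62.8 FPKM in 3K, 28.3 FPKM in 1K, 50.7 FPKM in 2K and 26.1 FPKM in R, and between 19.1 and 24.7 FPKM in the 5 later libraries. Asns was thus highest in 3K and 2K, the 2 libraries without dietary tryptophan and niacin. The same 2 libraries held the most pancreatic RNA, with acinar shares of 10.2% for 3K and 7.74% for 2K. Diet and pancreatic RNA therefore cannot be told apart by this ranking. How much pancreatic RNA added to Asns or to the other ATF4 targets was not tested. Chac1, which degrades glutathione, had 4.08 FPKM in 3K, 0.829 FPKM in 1K, 5.66 FPKM in 2K and 2.03 FPKM in R. Slc7a11, the cystine carrier, had 5.47 FPKM in 3K against 0.979 FPKM in 1K, and 14.2 FPKM in 3KR against 0.887 FPKM in 1KR. Nupr1, a stress-induced nuclear protein, had 503 FPKM in 3K, 7.51 FPKM in 1K, 496 FPKM in 2K and 39.9 FPKM in R. Nupr1 is also strongly expressed by acinar pancreas, whose share moved with it. Pck2, a mitochondrial carboxykinase, had 19.6 FPKM in 3K against 7.49 FPKM in 1K.

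Other members set 3K apart from 1K as well. Slc7a5, the carrier that brings tryptophan and other large neutral amino acids into cells, had 23.6 FPKM in 3K, 3.23 FPKM in 1K, 12.6 FPKM in 2K and 3.78 FPKM in R. Ppp1r15a, which restarts translation by directing dephosphorylation of eIF2, had 41.7 FPKM in 3K, 8.71 FPKM in 1K, 37.2 FPKM in 2K and 7.98 FPKM in R, and Phgdh, of serine synthesis, had 8.57 FPKM in 3K against 2.50 FPKM in 1K. Other targets did not share the direction. Slc3a2, the partner chain of Slc7a5 and also of basolateral epithelial carriers, had 142 FPKM in 3K against 313 FPKM in 1K (-1.14). The pseudokinase Trib3 had 8.04 FPKM in 3K against 16.5 FPKM in 1K (-0.99), and the stress factor Ddit3 had 6.399 FPKM in 3K against 12.7 FPKM in 1K (-0.93). Atf4 itself, regulated mainly in translation, had 91.1 FPKM in 3K and 67.3 FPKM in 1K.

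Aminoacyl-tRNA synthetases, which charge tRNAs, were mostly even. Of 20 genes, 2 counted as higher and 0 as lower, Vars at 129 FPKM in 3K against 53.1 FPKM in 1K and Eprs at 35.2 FPKM in 3K against 15.2 FPKM in 1K. The tryptophan enzyme Wars had 39.7 FPKM in 3K and 35.5 FPKM in 1K, and the methionine enzyme Mars had 14.2 FPKM in 3K and 7.63 FPKM in 1K. Cytosolic ribosomal protein genes stayed within 2-fold in all 41 measured cases (median 0.15). Of 20 chaperone genes of the endoplasmic reticulum, 1 was at least 2-fold higher, Sel1l, and 1 lower, the goblet cell sensor Ern2.

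**Figure D4:**
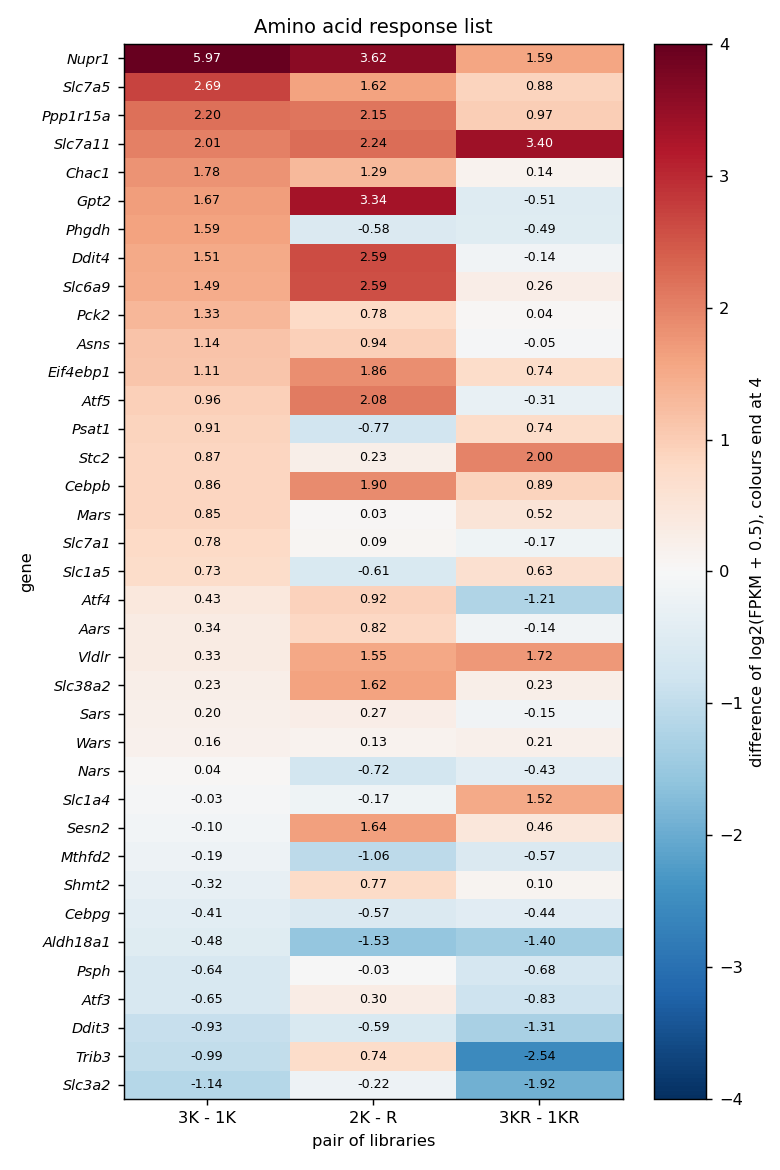
Differences of log2(FPKM + 0.5) for the 37 measured ATF4 targets (vertical axis, sorted by 3K minus 1K) in 3K minus 1K, 2K minus R and 3KR minus 1KR (horizontal axis), as printed values on a colour scale that ends at 4 either way. In 3K minus 1K the values run between -1.14 for Slc3a2 at the bottom and 5.97 for Nupr1 at the top.

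Energy genes lay below 0 in 3K minus 1K, most by less than 2-fold. Of 30 nuclear genes of oxidative phosphorylation, 30 lay below 0 in 3K minus 1K and 5 were at least 2-fold lower (median -0.88), a share near the 14.9% of all genes. Of 13 genes encoded in mitochondrial DNA, 13 lay below 0 and 4 were at least 2-fold lower (median -0.76). Of 24 cholesterol synthesis genes, 9 counted as lower and 0 as higher (median -0.74). With the organ genes left out and the remaining sums made equal, the medians were -0.44 for oxidative phosphorylation, -0.33 for mitochondrial and -0.31 for cholesterol synthesis genes. The last reductase of the cholesterol pathway, Dhcr7, had 17.8 FPKM in 3K against 64.4 FPKM in 1K. Of 21 antioxidant genes, 7 were at least 2-fold lower, among them the glutathione transferase Gstm1 (105 FPKM in 3K against 372 FPKM in 1K). In the same list, 4 were at least 2-fold higher, led by the heme oxygenase Hmox1 (38.6 FPKM in 3K against 1.35 FPKM in 1K).

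Among 21 PPAR targets and genes of fatty acid oxidation, 2 counted as higher and 4 as lower. The thioesterase Acot1 had 19.6 FPKM in 3K, 3.19 FPKM in 1K, 22.1 FPKM in 2K and 1.40 FPKM in R. Pdk4, the kinase that spares glucose by shutting off pyruvate oxidation, was near equal, with 165 FPKM in 3K, 151 FPKM in 1K, 212 FPKM in 2K and 17.2 FPKM in R, and stood high in all 3 deficient libraries of day 28. Carnitine palmitoyltransferase Cpt2, which brings fatty acids into oxidation, had 26.8 FPKM in 3K against 82.4 FPKM in 1K. Of 13 cytosolic heat shock genes, the small chaperone Hspb1 counted as higher (23.3 FPKM in 3K against 6.97 FPKM in 1K) and Hspa1b as lower (0.697 FPKM in 3K against 2.15 FPKM in 1K).

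Outside the acinar list, the extracellular matrix list had the most genes counted as higher. Of 30 extracellular matrix genes, 29 counted as higher in 3K and 0 as lower (median 1.85), beside 15% and 14.9% of all genes. With the organ genes left out and the remaining sums made equal, the matrix median was 2.27 and that of all genes 0.39. The fibrillar collagen Col1a1, on chromosome 11, 94936224 to 94953042, had 19.7 FPKM in 3K, 4.18 FPKM in 1K, 14.3 FPKM in 2K, 46.7 FPKM in R and 51.6 FPKM in C. It was lowest in 1K, and 3K still lay below R and C. The basement membrane collagen Col4a1 had 159 FPKM in 3K, 29.4 FPKM in 1K and 68.6 FPKM in R, and elastin, Eln, had 15.7 FPKM in 3K, 1.81 FPKM in 1K and 9.44 FPKM in R. The collagen cross-linking oxidase Lox had 10.004 FPKM in 3K, 0.961 FPKM in 1K, 10.2 FPKM in 2K and 1.76 FPKM in R, so that it was higher in the 2 libraries lacking tryptophan and niacin. The list as a whole took 0.206% of the summed FPKM in 3K, 0.0419% in 1K, 0.194% in 2K, 0.204% in R and 0.193% in C. 1K had the lowest share of the 9 libraries.

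Other cells of the gut wall had the same direction, with the exception of smooth muscle. Of 16 fibroblast genes 13 were at least 2-fold higher in 3K (median 1.43), of 14 endothelial genes 11 (1.69), and of 12 genes of enteric neurons and glia 9 (1.64). Pecam1, an adhesion protein of endothelium, had 33.0 FPKM in 3K, 6.15 FPKM in 1K, 16.4 FPKM in 2K and 13.2 FPKM in R. The neuronal tubulin Tubb3 had 6.66 FPKM in 3K against 1.43 FPKM in 1K. Of 15 matrix metalloproteinases and inhibitors, 9 were at least 2-fold higher, among them the stromelysin Mmp3 (8.71 FPKM in 3K against 0.359 FPKM in 1K) and the inhibitor Timp1 (5.32 FPKM in 3K against 0.910 FPKM in 1K). Of 14 smooth muscle genes, 0 counted as higher and 1 as lower (median 0.15). The smooth muscle actin Acta2 had 195 FPKM in 3K and 148 FPKM in 1K.

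Blood and fat transcripts were also higher. All 6 measured erythroid genes were at least 2-fold higher in 3K, with the haemoglobin gene Hbb-bs at 72.6 FPKM in 3K against 2.70 FPKM in 1K. Hba-a1, Hba-a2 and Hbb-bt were listed at 0 in 1K and stayed below 2 FPKM in 3K, and globin genes are near-identical copies. These 3 were compared only because 3K reached 1 FPKM, so they could only count as higher. The median level of the 6 genes in 1K was 0.116 FPKM. The list made up 0.0172% of the summed FPKM of 3K, against 0.000715% for 1K. Of 13 adipocyte genes, 8 counted as higher and 0 as lower (median 2.01). Adiponectin, Adipoq, had 20.9 FPKM in 3K, 0.850 FPKM in 1K, 10.951 FPKM in 2K, 20.7 FPKM in R and 35.4 FPKM in C, so that 1K stood low and 3K at the level of R. The part of attached fat, blood or pancreas in the matrix, vessel and leukocyte genes was not tested.

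Inflammatory genes were higher in 3K. Of 15 neutrophil genes, 12 counted as higher and 0 as lower (median 2.61). Their median level in 1K was 0.567 FPKM, and genes below 1 FPKM in 1K could not count as lower. The neutrophil list took 0.0392% of the summed FPKM in 3K, 0.00339% in 1K and 0.357% in 3KR. The share of the erythroid list stood beside it at 0.0172% in 3K, 0.000715% in 1K and 0.00285% in 3KR. S100a8, a calprotectin subunit, had 73.4 FPKM in 3K, 2.88 FPKM in 1K, 59.5 FPKM in 2K, 5.57 FPKM in R and 1273 FPKM in 3KR. The chemokine Cxcl2, which draws neutrophils, had 31.1 FPKM in 3K, 0.609 FPKM in 1K, 19.5 FPKM in 2K and 0.809 FPKM in R. These genes were thus high in 3K and 2K and low in 1K and R. Of 24 cytokines and chemokines, 14 counted as higher in 3K and 3 as lower (median 1.45). The inflammatory cytokine Il1b had 13.7 FPKM in 3K against 1.90 FPKM in 1K, and the lower members were the small intestinal chemokine Ccl25, Ccl6 and Ccl20.

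Lcn2, the siderophore-binding lipocalin made by injured epithelium and neutrophils, on chromosome 2, 32384633 to 32388252, had 643 FPKM in 3K, 10.9 FPKM in 1K, 3026 FPKM in 2K and 9.72 FPKM in R. At later times it had 208 FPKM in 3KR and between 1.47 and 4.13 FPKM in the other 4. Acinar genes took 10.2% of the summed FPKM in 3K, 7.74% in 2K and 0.273% in 3KR. Liver genes took 0.0611%, 5.39% and 0.0232% in the same libraries. The part of organ RNA in Lcn2 was not tested. The antimicrobial and defence list as a whole had 9 of 21 genes counted as higher and 4 as lower. The nitric oxide synthase Nos2 was the lowest of these relative to 1K, with 1.72 FPKM in 3K, 27.5 FPKM in 1K, 0.957 FPKM in 2K and 95.2 FPKM in R. The bactericidal lectins Reg3b and Reg3g were near equal, at 28692 and 8376 FPKM in 3K and 35192 and 10668 FPKM in 1K. Genes of the list for regenerating epithelium were higher in 11 of 18 cases and lower in 1 (median 1.25), with the membrane-binding annexin Anxa1 at 44.5 FPKM in 3K against 5.75 FPKM in 1K and Ly6a, a marker of the repairing epithelium in mice, at 35.1 FPKM in 3K against 7.61 FPKM in 1K. Its member Ly6d is also on the B cell list, and Il33 on that of cytokines. The part of leukocytes, vessels and pancreas in this list was not tested.

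Macrophage and B cell genes were mostly higher, and more interferon genes counted as lower than as higher. Of 21 macrophage genes, 13 counted as higher and 2 as lower (median 1.49), with the endotoxin receptor Cd14 at 25.8 FPKM in 3K against 2.00 FPKM in 1K. Of 16 B cell genes, 10 counted as higher and 0 as lower (median 1.45). Of 35 interferon response genes, 8 counted as lower and 2 as higher (median -0.47). The lower ones were led by Mx1, a GTPase against viruses, at 0.452 FPKM in 3K against 3.76 FPKM in 1K. With the organ genes left out and the remaining sums made equal, the interferon median was -0.08 and that of all genes 0.39.

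Lymphocyte genes differed one by one. Of 17 T and NK cell genes, 8 lay above 0 and 9 below. Those counted as lower in 3K were 5 (29.4%, beside 14.9% of all genes), Gzmb, Nkg7, Itgae, Cd8a and Gzma, genes of cytotoxic and intraepithelial cells. Those counted as higher were 2 (11.8%, beside 15% of all genes), the T cell receptor chain Cd247 and Foxp3 of regulatory T cells. Granzyme B, Gzmb, had 1.80 FPKM in 3K, 7.08 FPKM in 1K, 1.46 FPKM in 2K and 3.12 FPKM in R. Cd247 had 3.62 FPKM in 3K against 0.505 FPKM in 1K. Of 13 plasma cell genes, 5 counted as higher and 1 as lower (median 0.35). The constant chain of IgA, Igha, which dominates in the gut, had 118 FPKM in 3K, 229 FPKM in 1K, 176 FPKM in 2K and 882 FPKM in R, and the IgG chain Ighg2b had 13.9 FPKM in 3K, 1.94 FPKM in 1K, 5.41 FPKM in 2K and 8.32 FPKM in R. All 3 deficient libraries of day 28 thus lay far below R for Igha, and 3K lay above the others named for Ighg2b. MHC class II genes differed by less than 2-fold in all 10 cases. Of 17 genes of MHC class I presentation, 3 counted as lower (17.6%, a share near the 14.9% of all genes) and 0 as higher. The median was -0.66, and -0.29 with the organ genes left out and the remaining sums made equal. The lower ones were led by the nonclassical H2-T3 of gut epithelium at 19.3 FPKM in 3K against 110.5 FPKM in 1K. MHC class I genes are near-identical copies, so the split of reads among them is uncertain.

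Hormone and clock genes differed one by one. Of 17 glucocorticoid responsive genes, 8 counted as higher and 2 as lower in 3K (median 0.55). The metallothionein Mt2, which binds zinc, had 1583 FPKM in 3K, 202 FPKM in 1K, 1795 FPKM in 2K and 20.0 FPKM in R. The chaperone Fkbp5, a common readout of glucocorticoids, had 125 FPKM in 3K, 240.2 FPKM in 1K, 229 FPKM in 2K and 29.9 FPKM in R, and was high in all 3 deficient libraries of day 28. Of 19 clock genes, 5 were at least 2-fold higher, among them Arntl at 11.5 FPKM in 3K against 1.84 FPKM in 1K, and 6 lower, among them Dbp at 31.2 FPKM in 3K against 88.5 FPKM in 1K. The sources used here do not say at which hour the tissue was taken.

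The loss of tryptophan and niacin can also be read with methionine in the diet, from 2K against R, a pair that shares no library with 3K and 1K. In 2K, 2801 genes counted as higher (14.7%) and 2693 as lower (14.1%) than in R. Of the genes at least 2-fold higher in 3K than in 1K, 1009 were so in 2K against R as well, which is 36.2% of the 2785 and 36.0% of the 2801, and 157 were lower there. Of those at least 2-fold lower, 1083 were shared, 39.0% of the 2774 and 40.2% of the 2693, and 171 were higher. Across 17468 genes measured in both pairs, the 2 differences had a Pearson r of 0.50, and 0.44 without the organ lists. This r is across genes, which are not independent replicates, and 3K and 2K shared a high content of pancreatic RNA.

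**Figure D5:**
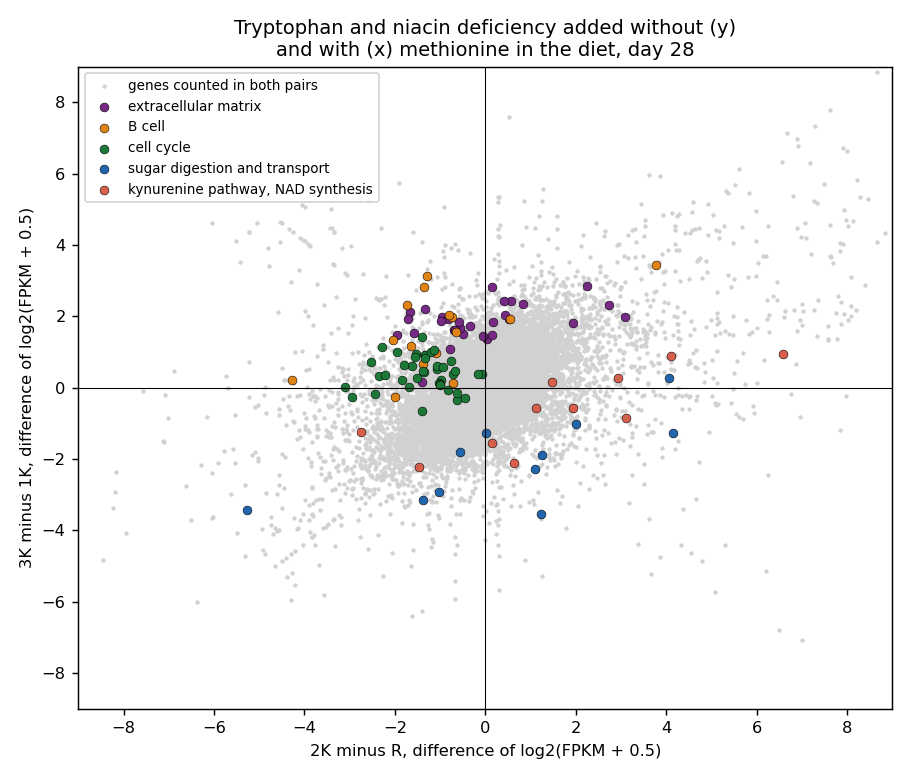
Log2 difference of 3K minus 1K (vertical axis) against 2K minus R (horizontal axis), 1 point per gene of 17468, with 23 genes outside the plotted range of 9 either way. Of the 5 coloured lists, the extracellular matrix genes have medians of 1.85 on the vertical and -0.42 on the horizontal axis, and the sugar digestion genes -1.90 and 1.09.

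Genes at least 2-fold apart in both pairs in the same direction included, beside Lcn2, Cxcl2 and the acinar genes, Slc7a5 (2.69 in 3K minus 1K and 1.62 in 2K minus R), Lox (2.85 and 2.24) and Maoa (-3.42 and -3.65). Klk1, a kallikrein of glandular tissue including the pancreas, had 1033 FPKM in 3K against 16.4 FPKM in 1K and 883 FPKM in 2K against 60.5 FPKM in R. Outside the pancreas, stomach and liver lists, and without genes at least 10 times as high in 2K as their mean in 3K and 1K, the 10 largest positive differences of 3K minus 1K were those of Reg2, Cuzd1, Pdia2, Reg3d, Nupr1, Klk1, Lcn2, Erp27, Amy2a3 and Serpini2, most of which the pancreas also makes.

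Other groups differed in size or direction between the pairs. Matrix genes had a median of 1.85 in 3K minus 1K and -0.42 in 2K minus R, and cell cycle genes 0.40 and -1.34. Sugar digestion genes had -1.90 and 1.09, and xenobiotic genes -1.71 and 0.24. Beside these gaps stand the shares, of which 1K had the lowest for matrix genes (0.0419%) and the highest for enterocyte genes (5.35%), while 3K, 2K and R lay at 0.206%, 0.194% and 0.204% for matrix and at 2.64%, 2.07% and 2.46% for enterocyte genes. These gaps were described and not tested.

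Single genes showed the largest gaps between the pairs. Fabp6 had a difference of -1.94 in 3K minus 1K and -11.28 in 2K minus R, and its levels ran over the 9 libraries between 0.282 FPKM in 2K and 3486 FPKM in C. The phosphate carrier Slc34a2 had 5.24 FPKM in 3K, 5.63 FPKM in 1K, 0.337 FPKM in 2K and 158 FPKM in R, so that 3K lay near 1K while 2K lay far below R. Other genes with this sign were Ang4, Defa34, Defa40, Mptx2, Naaladl1, Plb1, Car3 and Adipoq. In the opposite sense, the acute phase gene Saa1 had 102 FPKM in 3K against 231 FPKM in 1K and 5432 FPKM in 2K against 23.2 FPKM in R. Psca, a surface protein of stomach and other epithelia, had 14.1 FPKM in 3K and 10.9 FPKM in 1K, and 491 FPKM in 2K against a listing of 0 in R. Tat and Itih3, liver genes, and Sult6b2, Sptssb, Adh1, Car2, Fbp1 and Hsd17b13 also had a lower difference in 3K minus 1K than in 2K minus R.

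After 5 days of normal feed, 3KR against 1KR carried part of the pattern. In 3KR, 2476 genes counted as higher (13.7%) and 1911 as lower (10.5%) than in 1KR. Of the genes higher in 3K than in 1K, 720 were so again, 25.9% of the 2785 and 29.1% of the 2476, and 122 were lower. Of the lower genes, 813 were shared, 29.3% of the 2774 and 42.5% of the 1911, and 203 were higher. Across 16842 genes the 2 differences had a Pearson r of 0.32. The part of the small RNAs and of colonic RNA in 3KR was not tested, and its estimated depth of 15.7 M fragments was the lowest of the 9.

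Neutrophil genes stood even further apart at day 33, with a median of 5.72 in 3KR minus 1KR against 2.61 in 3K minus 1K. The antimicrobial peptide Ngp of neutrophil granules had 14.6 FPKM in 3K, 0.121 FPKM in 1K, 89.7 FPKM in 3KR and 0.266 FPKM in 1KR. Matrix genes kept their direction, with a median of 1.27 at day 33, as did sugar digestion (-2.57), xenobiotic genes (-2.03) and amino acid transporters (-1.46). Region lists also stood apart in 3KR minus 1KR. Their medians were 2.19 for colon, 1.77 for Hox genes, 1.04 for ileum and -3.18 for duodenum and proximal gut. The part of gut region in the differences of day 33 was not tested. The acinar list did not keep its difference, with a median of -0.33 at day 33, although Sycn, a zymogen granule protein, had 29.6 FPKM in 3KR against 1.79 FPKM in 1KR. ATF4 targets had a median of 0.04 at day 33. Goblet cell genes had 0.82 at day 33 against -1.89 at day 28, with Muc2 at 13509.8 FPKM in 3KR and 2015 FPKM in 1KR.

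Some of the named genes were at least 2-fold apart in all 3 pairs in the same direction, although 3KR and 1KR were both back on normal feed. Higher in 3K, 2K and 3KR were the acute phase genes Hp and Lrg1, which liver makes, Cbs, Klk1, Lcn2, Nupr1, Cxcl2, Ngp, Ppy and Sycn. Lower in these libraries were Akr1c14, Akr1c19, Tesk2, Slc10a5, Slc13a2, Enpp7 and Slc5a11. Lrg1, a leucine-rich glycoprotein of the acute phase, had 282 FPKM in 3K against 7.35 FPKM in 1K, 860.2 FPKM in 2K against 4.82 FPKM in R, and 34.0 FPKM in 3KR against 2.48 FPKM in 1KR. The islet hormone gene Ppy was listed at 0 in 1KR. Slc5a11 had 4.09 FPKM in 2K against 66.6 FPKM in R, and 18.0 FPKM in 3KR against 218 FPKM in 1KR.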

How the data were processed

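Intestinal RNA of 9 conditions was sequenced, 1 library each, after ribosomal RNA depletion (Ribo-Zero Plus) and a stranded TruSeq preparation without bead selection of mRNA, per the labels' protocols. HISAT2 (version not given in the sources used here), Cuffdiff 2.2.1 and GRCm38 are named in the submitters' processing notes. The values are FPKM, deposited by the authors as 1 table of 55468 genes. No counts were used, so the depth was estimated from the most frequent low FPKM of single-transcript genes of 2 to 8 kb, taken as 1 fragment. The precision of single low values is unknown.

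Gene types and coordinates came from the GENCODE mouse release 21 (GRCm38), where 327 genes were not found. Genes that reached 1 FPKM in a pair of libraries were compared by the difference of log2(FPKM + 0.5), without a test, since each condition has 1 library. A list of genes is given by its counts and median beside all genes. The members and the 59 lists (1068 genes) were chosen with earlier results of these data known. The named-gene rule kept genes with 5 or more FPKM in 3K or 1K. From these it took the 15 largest differences each way, the 10 largest each way outside the pancreas, stomach and liver lists and without genes at least 10 times as high in 2K as their mean in 3K and 1K, the 10 largest gaps each way to 2K against R, the 10 largest each way that were also 2-fold apart with the same sign in 3KR against 1KR, and the 6 largest of each list. Further list members were named after their values were seen, for their role. The 7 alternatives tried were other pseudocounts, other floors and other scalings. Promoter sequences came from RefSeq (GRCm38.p6). The scripts were tested on simulated data. Python 3.11.15, pandas 2.3.3, numpy 2.4.6 and matplotlib 3.10.9 were used.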

Additional observations from a re-analysis of the deposited data

Results flagged for a closer look

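Lists were picked out where their medians had opposite signs in 2 pairs of libraries, both at least 0.5 in size and at least 2 apart on the log2 scale, with 5 or more genes measured in each pair. The difference between pairs was not tested in any of these cases, since each library is single.

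Without and with methionine in the diet at day 28, 3 lists stood out. Sugar digestion and transport genes had a median of -1.90 in 3K minus 1K and 1.09 in 2K minus R, a gap of -2.99. In the second pair Sis, the sucrase-isomaltase, was still lower in 2K, while fructose genes and G6pc, which liver also expresses, were higher. The kynurenine and NAD synthesis genes had medians of -0.57 and 1.69, a gap of -2.27, and liver genes took 5.39% of the summed FPKM in 2K, against 0.0552% in R. B cell genes had medians of 1.45 and -1.34, a gap of 2.78.

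Between day 28 and day 33, 5 lists stood out, each given as 3K minus 1K and then 3KR minus 1KR. Adipocyte genes had medians of 2.01 and -1.67, a gap of 3.68. Islet genes had 2.02 and -1.07, a gap of 3.09, and ileal genes had -2.03 and 1.04, a gap of -3.07. Goblet cell genes had -1.89 and 0.82, a gap of -2.72. Cholesterol synthesis genes had -0.74 and 1.37, a gap of -2.11. In 3KR, small RNAs took 50.2% of the summed FPKM and Car1, a colon marker, was at 1151 FPKM, and the part of either in these gaps was not tested.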

How the results depend on the processing

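No paired analysis was possible because each condition has 1 library, and for the same reason no library could be left out. The count of genes at least 2-fold higher in 3K than in 1K was 1470 with a floor of 5 FPKM and 4645 without organ genes, against 2785. The count of lower genes was 1598 without organ genes, against 2774. For 2K against R, lower genes numbered 1558 with the higher floor and 5079 without small RNAs, and higher genes 1787 without small RNAs. For 3KR against 1KR, higher genes numbered 1347 with the higher floor and 1393 without organ genes, and lower genes 3574 without organ genes. Both settings that leave genes out also make the remaining sums equal, so they shift all genes together. The summed FPKM as deposited was 660634 in 3K, 808240 in 1K, 973592 in 3KR and 711009 in 1KR. Making such sums equal moves the counts by itself, and its part was not separated from that of the genes left out. The other counts stayed within 1.5 times. Of the list medians for 3K minus 1K, 52 of 55 moved by at least 0.25 without organ genes, 11 of 54 with the higher floor, and at most 7 of 59 under any other setting.

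Single libraries set the main limit. A value at or near 0 FPKM rests on few fragments, and the sources used here give neither the gut segment nor the number of animals behind a library.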
